A study of Mus musculus with 6 samples.

Results

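The genes described here are the G1 cyclins and CDK inhibitors: Ccnd1, Ccnd2 and Ccnd3 (D-type cyclins), Ccne1 and Ccne2 (E-type cyclins), the kinase gene Cdk6, Cdkn1a and Cdkn1b (Cip/Kip inhibitors), and Cdkn2a and Cdkn2b (INK4 locus). They were taken by gene symbol from the deposited count table, in which all 10 had a row among 38561 genes. The table holds 6 RNA-seq libraries from mouse embryonic stem cells (ESCs) of strain 129X1/SvJ x 129S1/Sv, kept as an undifferentiated ESC culture without feeder cells on gelatin, with Knockout Serum Replacement and leukemia inhibitory factor, at passages 13 to 17. Cells were sorted by 2 surface proteins, PECAM1, an adhesion molecule of undifferentiated ESCs, and PDGFRa, a receptor that marks primitive endoderm. PECAM1-only cells carried PECAM1 without PDGFRa, double-positive cells carried both, and PDGFRa-only cells carried PDGFRa without PECAM1, with 2 libraries in each fraction. All 3 fractions came from the same kind of culture, with no treatment or genetic change named in the labels, and 100000 sorted events gave the RNA of a library, which was amplified before sequencing. The labels do not say whether the replicates of a fraction were separate cultures, so p-values measure only the spread between libraries.

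D-type cyclins bind Cdk4 or Cdk6 and, with the E-type cyclins and Cdk2, phosphorylate the retinoblastoma protein, which releases E2F factors and lets a cell pass from G1 into S phase. The INK4 proteins block Cdk4 and Cdk6, and the Cip/Kip proteins bind cyclin complexes of several kinds. Mouse ESCs are known for a short G1 phase and for cyclin E and Cdk2 activity that is high through much of the cell cycle.

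Stretches before the transcription start are shown for 3 members that represent the observed patterns: Ccne1, lower in the PDGFRa-only than in the PECAM1-only fraction; Cdkn1b, higher; and Cdkn1a, whose libraries overlapped. They are RefSeq sequences of build GRCm38.p6, 5′ to 3′ on the gene's strand, limited to the bases before the most 5′ annotated exon: chr7:38107535-38107740 (minus strand), chr6:134920151-134920400 (plus strand) and chr17:29090729-29090975 (plus strand). Capitals mark matches to GGGCGG (the GC box), CCAAT, or CATGNNNNNNCATG (paired core letters of the p53 element).
Ccne1: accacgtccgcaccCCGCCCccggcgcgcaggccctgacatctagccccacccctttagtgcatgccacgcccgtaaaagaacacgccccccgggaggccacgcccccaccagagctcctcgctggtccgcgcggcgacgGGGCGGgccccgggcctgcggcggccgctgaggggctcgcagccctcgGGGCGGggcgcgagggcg
Cdkn1b: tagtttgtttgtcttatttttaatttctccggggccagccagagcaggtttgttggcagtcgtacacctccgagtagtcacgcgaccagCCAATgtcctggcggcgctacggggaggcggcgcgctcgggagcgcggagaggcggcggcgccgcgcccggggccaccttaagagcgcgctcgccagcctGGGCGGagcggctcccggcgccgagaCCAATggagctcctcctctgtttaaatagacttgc
Cdkn1a: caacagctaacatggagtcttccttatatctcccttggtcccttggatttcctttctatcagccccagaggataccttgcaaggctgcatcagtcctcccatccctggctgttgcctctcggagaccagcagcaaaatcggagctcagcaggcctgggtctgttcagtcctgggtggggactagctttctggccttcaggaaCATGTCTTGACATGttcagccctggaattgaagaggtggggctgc
Both strands were searched for these motifs and for TATAAA and TCCCGC, and no motif searched contained another. The Ccne1 stretch held 3 GGGCGG matches. At least 1 match was present in 25.8% of 32851 RefSeq promoter windows cut to the same length, and windows with 3 were not counted. The Cdkn1b stretch held 2 CCAAT matches, where 33.8% of windows held at least 1, and 1 GGGCGG match, where 32.7% held at least 1. The Cdkn1a stretch held 1 match to the p53 letters, which occurred in 0.484% of windows. TATAAA and TCCCGC were not in these 3 windows.

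Library totals ranged from 4809661 to 7273669 counts. Levels are CPM, counts relative to the library total after scaling by the trimmed mean of M-values (TMM), and differences between fractions were tested with edgeR's quasi-likelihood test over 13909 genes that passed a filter on low counts. A gene is called higher or lower where its Benjamini-Hochberg adjusted p is under 0.05. The sort genes followed the labels. Pecam1 stood at 143 to 166 CPM in PECAM1-only, 44.9 to 53.8 in double-positive and 1.51 to 1.57 in PDGFRa-only libraries, and Pdgfra at 1.88 to 2.04, 518 to 552 and 509 to 605. The 9 ESC marker genes, Pecam1 among them, summed to 1664 to 1726 CPM in PECAM1-only libraries. Their sum was 488 to 568 in double-positive and 111 to 156 in PDGFRa-only libraries. All 9 were called lower in PDGFRa-only than in PECAM1-only cells, by unequal amounts. Pou5f1 averaged 138 CPM in PECAM1-only and 76.7 in PDGFRa-only cells, and Nanog 199 and 0.451. The 9 primitive endoderm markers, Pdgfra among them, summed to 75.6 to 95.8, 16040 to 17120 and 24460 to 25020 CPM. Endothelial and blood markers (9 genes) summed to 14.7 to 16.2, 68.2 to 84.0 and 84.9 to 134 CPM. Among them, Cdh5 averaged 0.0784, 54.3 and 88.9 CPM in the same order, and Kdr 0.526, 10.9 and 10.8. Tek went the other way, at 13.1, 10.04 and 9.93 CPM. Emcn, Erg and Ptprc were at 0 counts in every library. Tie1 was at 0 in both outer fractions, and Gata1 and Tal1 were at 0 in PDGFRa-only libraries. Trophoblast markers (7 genes) summed to 44.6 to 45.0, 19.5 to 22.8 and 6.19 to 8.98 CPM, with Cdx2 at 0 in PECAM1-only libraries, and fibroblast markers (8 genes) to 2.91 to 3.61, 5.19 to 8.14 and 3.59 to 7.86, with Lum at 0 in the fractions that carry PDGFRa and Thy1 and Postn at 0 in PDGFRa-only libraries. Between the outer fractions, 1 of 2 tested trophoblast markers was called lower in PDGFRa-only cells, and 1 of 2 tested fibroblast markers was called higher. Of 3 tested endothelial and blood markers, 2 were called higher in PDGFRa-only than in PECAM1-only cells. The fibroblast sums of the outer fractions overlapped, and the other marker sums separated these fractions. The part of any of these sums in the members' differences was not tested. In bulk libraries, fewer cells of a type and less RNA per cell cannot be told apart.

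Between the outer fractions, 6 of the 9 tested members were called: Ccnd2, Ccne2 and Cdkn1b were higher in PDGFRa-only cells, and Ccnd1, Ccne1 and Cdk6 were lower. That is 66.7% of the tested members, against 59.0% of all tested genes called in either direction, so the share is near the background. The same 6 genes were called in the same directions in double-positive against PECAM1-only cells, where 38.2% of all tested genes were called; these comparisons share the PECAM1-only libraries, and each of the 3 comparisons shares libraries with the others. Between PDGFRa-only and double-positive cells 3 of 9 members were called, Ccnd2 higher and Ccnd1 and Cdk6 lower, against 17.6% of all genes in either direction. That is 1 higher against 5.94% and 2 lower against 11.7% of all genes. Over all tested genes, 4193 were higher and 4012 lower between the outer fractions, but 3227 and 5318 with scaling by library size alone. For double-positive against PECAM1-only cells 3031 were higher and 2288 lower, but 2421 and 3658 with library-size and 2528 and 3306 with upper-quartile scaling. For PDGFRa-only against double-positive cells 826 were higher and 1624 lower, but 528 and 1878 with library-size scaling. Cdkn2a did not pass the count filter. The libraries did not overlap for 7 of the 9 tested members between the outer fractions (77.8% of all tested genes), for 6 in double-positive against PECAM1-only cells (71.7%) and for 7 in PDGFRa-only against double-positive cells (57.5%). The median log2 fold change of the tested members was 0.18, 0.03 and 0.15 in these comparisons in turn, beside 0.01, -0.01 and 0.00 over all tested genes.

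**Figure D1:**
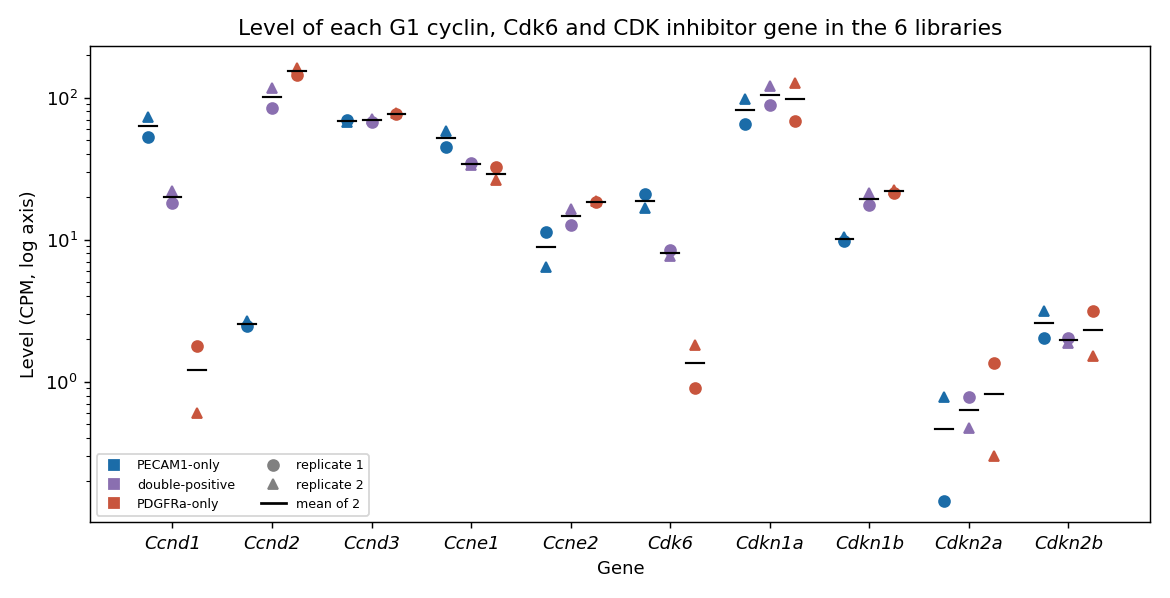
Level of each member in every library, in CPM on a log axis; circles and triangles are replicates 1 and 2, colours the fractions and bars the mean of 2. Ccnd1 and Cdk6 step down from PECAM1-only to PDGFRa-only cells, Ccnd2 steps up from 2.57 to 153 CPM on average, and Ccnd3 lies between 67.1 and 77.7 CPM in all 6 libraries.

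Among the D-type cyclins, Ccnd1 and Ccnd2 changed in opposite directions and Ccnd3 was not called. Ccnd1 (chromosome 7, 144929931 to 144939925, minus strand, GRCm38) encodes cyclin D1, a growth factor-responsive partner of Cdk4 and Cdk6. Its level was 52.7 and 73.5 CPM in PECAM1-only replicates 1 and 2, 18.1 and 22.1 in double-positive, and 1.80 and 0.604 in PDGFRa-only libraries. No library of a fraction overlapped another fraction, and the PDGFRa-only libraries held only 8 and 4 counts. Ccnd1 was 56.6-fold lower in PDGFRa-only than in PECAM1-only cells (log2 fold change -5.82 ± 0.35 SE, edgeR adjusted p = 1e-11). It was 3.14-fold lower in double-positive than in PECAM1-only cells (-1.65 ± 0.23, edgeR adjusted p = 6.54e-06) and 18.0-fold lower in PDGFRa-only than in double-positive cells (-4.17 ± 0.38, edgeR adjusted p = 8.96e-08). The size of the change rests on the few counts of the PDGFRa-only libraries. Without PDGFRa-only replicate 1 the outer log2 fold change was -6.64, without PDGFRa-only replicate 2 it was -5.11, and against double-positive cells the corresponding values were -5.01 and -3.47. A gene on the opposite strand whose exons overlap Ccnd1, Oraov1, stood at 11.7 to 15.1 CPM and was not called (edgeR adjusted p = 0.993).

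Ccnd2 (chromosome 6, 127125162 to 127152193, minus strand) encodes cyclin D2. It had 2.48 and 2.67 CPM in PECAM1-only libraries, from 17 counts in each, 84.7 and 117 in double-positive, and 144 and 163 in PDGFRa-only libraries. The libraries of the 3 fractions did not overlap, and the larger gap lay between PECAM1-only cells and the other fractions. Ccnd2 was 59.3-fold higher in PDGFRa-only than in PECAM1-only cells (log2 fold change 5.89 ± 0.25 SE, edgeR adjusted p = 5.61e-14) and 39.0-fold higher in double-positive than in PECAM1-only cells (5.28 ± 0.25, edgeR adjusted p = 5.88e-13). It was 1.52-fold higher in PDGFRa-only than in double-positive cells (0.61 ± 0.18, edgeR adjusted p = 0.0202). That last call was lost without double-positive replicate 1 (0.39, edgeR adjusted p = 0.350) and with the deposited RPKM values (limma adjusted p = 0.148 and 0.125 with pseudocounts of 0.1 and 1). The antisense gene at this locus in the table, AC163747.1, had at most 3 counts in any fraction.

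Ccnd3 (chromosome 17, 47505051 to 47599691, plus strand) encodes cyclin D3. It stood at 69.3 and 67.1 CPM in PECAM1-only, 68.0 and 71.4 in double-positive, and 76.8 and 77.7 in PDGFRa-only libraries. The PDGFRa-only libraries were above the other 4, which overlapped. The outer log2 fold change was 0.18, with a 95% interval of -0.16 to 0.52, and no comparison was called (edgeR adjusted p = 0.363 between the outer fractions, 0.904 for double-positive against PECAM1-only and 0.585 for PDGFRa-only against double-positive cells). Its direction depended on the scaling: with scaling by library size alone the outer value was -0.11. Ccnd3 shares 2.47% of the 50-base windows of its longest transcript with a processed copy, Ccnd3-ps, at 5.97 to 10.9 CPM, so reads may be split between the copies.

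In absolute size, 3.77% of all tested genes had an outer fold change at least as large as that of Ccnd1 and 3.70% at least as large as that of Ccnd2; for Ccnd3 the share was 86.8%. Levels per kilobase of exon, which allow genes to be set side by side, give the make-up of the D-type transcripts. In PECAM1-only cells Ccnd1 was 62.1% ± 6.0 of the summed D-type CPM per kilobase, Ccnd2 1.28% ± 0.110 and Ccnd3 36.6% ± 5.89 (SD, n = 2 libraries). In double-positive cells the shares were 18.6% ± 0.0728, 46.5% ± 3.90 and 34.9% ± 3.83. In PDGFRa-only cells they were 1.03% ± 0.760, 64.2% ± 2.33 and 34.8% ± 1.57. The share of Ccnd3 overlapped between the fractions, while those of Ccnd1 and Ccnd2 traded places. The summed level was 21.5 ± 2.97, 22.9 ± 3.29 and 25.4 ± 1.34 CPM per kilobase in PECAM1-only, double-positive and PDGFRa-only cells (SD, n = 2), differences within or near the spread between libraries. The division by length uses all annotated exons of a gene; with the longest transcript instead, the ranking turned in PECAM1-only and double-positive cells. In PECAM1-only cells Ccnd3 then made 50.9% ± 6.33 and Ccnd1 48.0% ± 6.39, and their libraries overlapped. In double-positive cells Ccnd3 made 46.2% ± 4.26, Ccnd2 40.2% ± 4.07 and Ccnd1 13.6% ± 0.184 (SD, n = 2). In PDGFRa-only cells Ccnd2 stayed first, at 54.3% ± 2.29 against 44.96% ± 1.75 for Ccnd3. The fall of the Ccnd1 share and the rise of the Ccnd2 share from PECAM1-only to PDGFRa-only cells were present with either length.

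**Figure D2:**
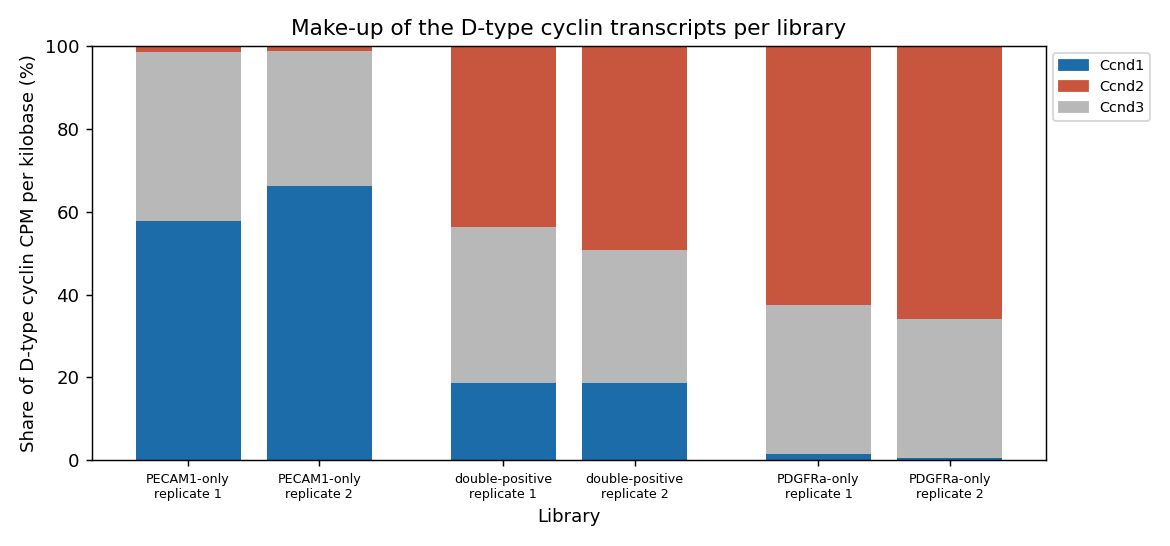
Share of the summed D-type cyclin CPM per kilobase (%) taken by Ccnd1, Ccnd2 and Ccnd3 in each of the 6 libraries. With this length (all annotated exons) Ccnd1 takes the largest share in both PECAM1-only libraries and Ccnd2 in all 4 libraries of the fractions that carry PDGFRa; with the longest transcript Ccnd3 is largest on average in PECAM1-only and double-positive cells (50.9% and 46.2%). Ccnd3 is at 34.8% to 36.6% on average in each fraction as drawn.

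Cdk6 (chromosome 5, 3341485 to 3531008, plus strand), a kinase partner of the D-type cyclins, fell along the same order as Ccnd1. It stood at 20.96 and 16.6 CPM in PECAM1-only, 8.497 and 7.67 in double-positive, and 0.898 and 1.81 in PDGFRa-only libraries, the last from 4 and 12 counts. The fractions did not overlap. Cdk6 was 13.0-fold lower in PDGFRa-only than in PECAM1-only cells (log2 fold change -3.70 ± 0.36 SE, edgeR adjusted p = 1.51e-08), 2.32-fold lower in double-positive than in PECAM1-only cells (-1.22 ± 0.27, edgeR adjusted p = 0.00104) and 5.58-fold lower in PDGFRa-only than in double-positive cells (-2.48 ± 0.39, edgeR adjusted p = 0.000111). Without PDGFRa-only replicate 2, the library with 12 counts, the outer value was -4.35 and that against double-positive cells -3.14. An outer fold change at least this large was found in 9.0% of tested genes. Per kilobase, Cdk6 was at 1.34 CPM in PECAM1-only and 0.0969 in PDGFRa-only cells. Cdk4, the other kinase partner of the D-type cyclins, is not among the members. Its level was 320 ± 7.76 CPM in PECAM1-only, 287 ± 12.2 in double-positive and 252 ± 1.71 in PDGFRa-only cells (SD, n = 2). In the deposited RPKM values Cdk6 stood at 0.509 and Ccnd1 at 0.475 in PDGFRa-only cells on average, so the order of these 2 lowest members depends on the length used and rests on 16 and 12 counts.

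The E-type cyclins, which activate Cdk2 late in G1, also differed in direction. Ccne1 (chromosome 7, 38097984 to 38107534, minus strand), whose upstream stretch holds 3 GGGCGG matches, stood at 45.1 and 58.2 CPM in PECAM1-only, 34.9 and 33.8 in double-positive, and 32.3 and 26.1 in PDGFRa-only libraries. Both PECAM1-only libraries lay above the rest, and the double-positive libraries lay just above the PDGFRa-only ones. Ccne1 was 1.78-fold lower in PDGFRa-only than in PECAM1-only cells (log2 fold change -0.83 ± 0.20 SE, edgeR adjusted p = 0.00113) and 1.502-fold lower in double-positive than in PECAM1-only cells (-0.59 ± 0.19, edgeR adjusted p = 0.0201). The latter call was lost without PECAM1-only replicate 2 (-0.38, edgeR adjusted p = 0.278), without double-positive replicate 1 (adjusted p = 0.0985) and without double-positive replicate 2 (adjusted p = 0.123). PDGFRa-only and double-positive cells were not told apart (-0.24, 95% interval -0.66 to 0.18, edgeR adjusted p = 0.446).

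Ccne2 (chromosome 4, 11191351 to 11204779, plus strand) stood at 11.4 and 6.43 CPM in PECAM1-only, 12.8 and 16.4 in double-positive, and 18.4 and 18.7 in PDGFRa-only libraries. The fractions did not overlap, but the PECAM1-only libraries were far apart. Ccne2 was 2.08-fold higher in PDGFRa-only than in PECAM1-only cells (log2 fold change 1.06 ± 0.27 SE, edgeR adjusted p = 0.00229), a call lost without PECAM1-only replicate 2 (0.72, edgeR adjusted p = 0.0648). The difference between double-positive and PECAM1-only cells was 0.71 ± 0.27 (edgeR adjusted p = 0.0472). It was lost without PECAM1-only replicate 2 (0.38, edgeR adjusted p = 0.418), without double-positive replicate 2 (0.52, edgeR adjusted p = 0.304) and with DESeq2 (adjusted p = 0.166). It was also lost with RLE size factors (edgeR adjusted p = 0.0726), library-size scaling (0.154), upper-quartile scaling (0.124), a stricter count filter (0.0585) and RPKM (limma adjusted p = 0.116 and 0.117). PDGFRa-only and double-positive cells differed by 0.35, with a 95% interval of -0.20 to 0.89 (edgeR adjusted p = 0.391). Ints8, whose exons overlap Ccne2 on the opposite strand, was at 84.6 to 93.6 CPM on average per fraction and was not called between the outer fractions (edgeR adjusted p = 0.489). Per kilobase, Ccne1 made 88.1% ± 5.88 of the E-type transcripts in PECAM1-only, 75.6% ± 3.73 in double-positive and 67.2% ± 3.58 in PDGFRa-only cells (SD, n = 2), so it was the more abundant E-type cyclin in all 3.

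Of the Cip/Kip inhibitors, Cdkn1b rose and Cdkn1a did not pass the test. Cdkn1b (chromosome 6, 134920401 to 134925513, plus strand) encodes p27, which binds cyclin E with Cdk2 and restrains S phase entry. It stood at 9.75 and 10.51 CPM in PECAM1-only, 17.6 and 21.3 in double-positive, and 21.3 and 22.5 in PDGFRa-only libraries. The PECAM1-only libraries were the lowest, and the PDGFRa-only libraries lay just above the double-positive ones. Cdkn1b was 2.17-fold higher in PDGFRa-only than in PECAM1-only cells (log2 fold change 1.12 ± 0.23 SE, edgeR adjusted p = 0.000334) and 1.92-fold higher in double-positive than in PECAM1-only cells (0.94 ± 0.23, edgeR adjusted p = 0.00287). The latter call was lost without double-positive replicate 2 (0.81, edgeR adjusted p = 0.0539). Between PDGFRa-only and double-positive cells the value was 0.17, with a 95% interval of -0.29 to 0.63 (edgeR adjusted p = 0.641).

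Cdkn1a (chromosome 17, 29090976 to 29100727, plus strand) encodes p21, a target of p53, and its upstream stretch holds the match to the p53 letters shown above. It stood at 65.8 and 97.7 CPM in PECAM1-only, 88.6 and 122 in double-positive, and 68.0 and 126 in PDGFRa-only libraries. All fractions overlapped, and replicate 2 was above replicate 1 in each. The outer log2 fold change was 0.26, with a 95% interval of -0.29 to 0.81 (edgeR adjusted p = 0.405), the value for double-positive against PECAM1-only cells was 0.36 (-0.18 to 0.91, edgeR adjusted p = 0.291) and that for PDGFRa-only against double-positive cells was -0.10 (-0.65 to 0.44, edgeR adjusted p = 0.828). Single libraries decided the outer value: without PDGFRa-only replicate 1 it was 0.65 and called (edgeR adjusted p = 0.0117), and without PDGFRa-only replicate 2 it was -0.26. Trp53, which encodes p53, was at 441 and 344 CPM in PECAM1-only, 194 and 145 in double-positive, and 107 and 77.0 in PDGFRa-only libraries (outer log2 fold change -2.10 ± 0.20 SE, edgeR adjusted p = 1.03e-08). Per kilobase, Cdkn1a was the highest of the 10 members in each fraction, at 23.0, 29.6 and 27.4 CPM per kilobase in PECAM1-only, double-positive and PDGFRa-only cells. It made 90.9% ± 1.86, 87.3% ± 1.01 and 84.1% ± 5.28 of the Cdkn1a and Cdkn1b transcripts (SD, n = 2).

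The INK4 members were low throughout. Cdkn2a (chromosome 4, 89274471 to 89294653, minus strand) encodes p16 and, in another reading frame, Arf, which counts per gene cannot separate. It had 1 and 5 counts in PECAM1-only, 5 and 3 in double-positive, and 6 and 2 in PDGFRa-only libraries, 22 in all, too few to be tested. Its neighbour Cdkn2b (chromosome 4, 89306299 to 89311039, minus strand), which encodes p15, had 14 and 20 counts in PECAM1-only, 13 and 12 in double-positive, and 14 and 10 in PDGFRa-only libraries. These are 2.04 and 3.14, 2.05 and 1.88, and 3.14 and 1.51 CPM in the same order. The libraries overlapped between PECAM1-only and PDGFRa-only cells, and no comparison was called (outer log2 fold change -0.21, 95% interval -1.25 to 0.83, edgeR adjusted p = 0.739).

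**Figure D3:**
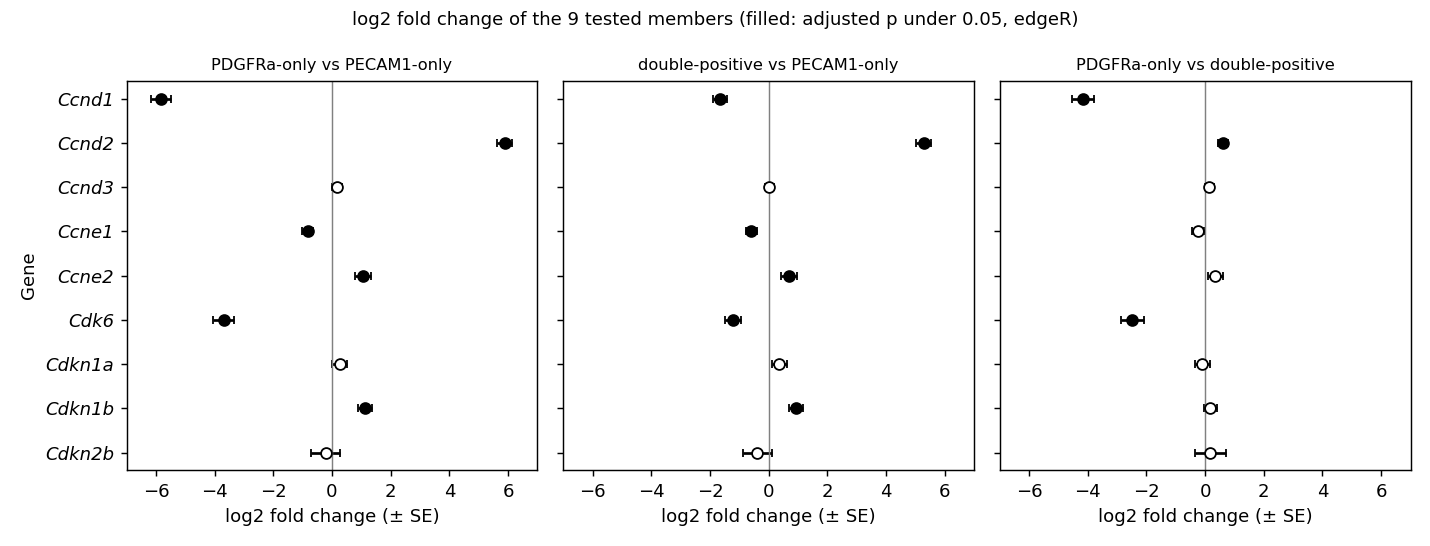
log2 fold change of the 9 tested members in each comparison, with bars of 1 SE; filled points passed an adjusted p of 0.05 in edgeR. Ccnd1, Ccnd2 and Cdk6 passed in all 3 panels, Ccne1, Ccne2 and Cdkn1b in the first 2, and Ccnd3, Cdkn1a and Cdkn2b in none.

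Per kilobase, the order of the members changed between fractions. In PECAM1-only cells Cdkn1a was followed by Ccne1 at 19.4, Ccnd1 at 13.4 and Ccnd3 at 7.77 CPM per kilobase, and Ccnd2 was last at 0.273. In double-positive cells Ccne1 (12.9), Ccnd2 (10.7) and Ccnd3 (7.94) followed Cdkn1a, and Cdkn1b, Ccnd1 and Ccne2 stood together at 4.27, 4.26 and 4.17. In PDGFRa-only cells Ccnd2 was next after Cdkn1a at 16.3, before Ccne1 at 10.98 and Ccnd3 at 8.80, and Ccnd1 was at 0.255. This order rests on the length of all annotated exons and on amplified RNA. With the longest transcript, Ccnd3 passed Ccnd1 in PECAM1-only cells (17.7 against 16.9), stood second in double-positive cells (18.1) and passed Ccne1 in PDGFRa-only cells (20.01 against 14.6). With the deposited RPKM values Ccnd2 stood second in double-positive cells, and Cdkn2a was the lowest in PECAM1-only cells. Cdkn1a was highest with each of the 3 measures.

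The double-positive fraction lay between the outer fractions for each of the 6 called members, but not at the same place. How often this holds over all genes called between the outer fractions was not computed, so the count cannot be set against a background. Positions are on the log2 CPM scale, with the means of PECAM1-only at 0% and PDGFRa-only at 100%. The SD covers only the 2 double-positive libraries and leaves out the spread of the outer fractions. The double-positive fraction stood at 27.8% ± 3.43 for Ccnd1 and 31.3% ± 2.71 for Cdk6 (SD, n = 2). For these genes the PDGFRa-only end rests on 12 and 16 counts. Ccnd2 stood at 89.5% ± 5.58, Cdkn1b at 84.0% ± 17.3, Ccne1 at 70.5% ± 4.12 and Ccne2 at 67.9% ± 23.1. The sort genes stood at 24.8% ± 2.78 for Pecam1 and 99.3% ± 0.798 for Pdgfra. On the linear CPM scale the members drew closer, with Ccnd1 at 69.5% ± 4.53, Cdk6 at 61.4% ± 3.37 and Ccnd2 at 65.1% ± 15.1, so the spread of positions depends on the scale. Pecam1 stood at 68.7% ± 4.12 on that scale and Pdgfra at 96.0% ± 4.34.

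**Figure D4:**
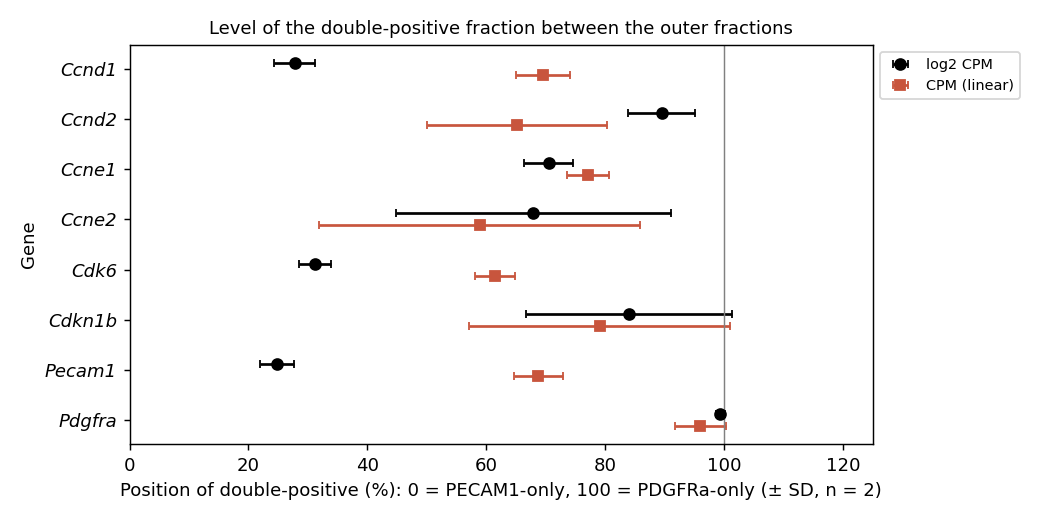
Position of the double-positive fraction (%) between PECAM1-only (0) and PDGFRa-only (100) for the 6 called members and the sort genes, on the log2 CPM scale (circles) and the linear CPM scale (squares). Bars are SD of the 2 double-positive libraries, with the outer means held fixed. Ccnd1, Cdk6 and Pecam1 lie at 24.8% to 31.3% on the log2 scale and at 61.4% to 69.5% on the linear scale.

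The list of RB and E2F genes, which also holds the kinase genes Cdk2 and Cdk4, had more genes lower than higher in PDGFRa-only against PECAM1-only cells. Of 15 tested, 8 were lower, 2 higher and 5 not called, with a median log2 fold change of -0.58. Over all tested genes 28.8% were lower and 30.1% higher. Rb1, the retinoblastoma gene, stood at 50.8 and 51.3 CPM in PECAM1-only, 27.1 and 30.7 in double-positive, and 11.5 and 11.9 in PDGFRa-only libraries (outer log2 fold change -2.12 ± 0.21 SE, edgeR adjusted p = 1.9e-08). Its relative Rbl2 (-1.55, edgeR adjusted p = 5.56e-06), the activator E2f2 (-2.50, edgeR adjusted p = 3.31e-07) and Tfdp2, an E2F partner (-1.75, edgeR adjusted p = 2.8e-08), were lower too. Cdk2, the kinase of the E-type cyclins, was higher (1.02, edgeR adjusted p = 5.82e-05), as was the repressor E2f6 (0.97, edgeR adjusted p = 0.000278).

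All 3 other CDK inhibitor genes were called between the outer fractions, 2 higher and 1 lower, where 59.0% of all tested genes were called in either direction. Cdkn2d, which encodes the INK4 protein p19, was at 6.41 and 8.31 CPM in PECAM1-only and 14.1 and 15.1 in PDGFRa-only libraries (log2 fold change 1.00 ± 0.26 SE, edgeR adjusted p = 0.00254). Cdkn2c, which encodes p18, rose from 1.17 and 0.784 to 2.92 and 3.93 CPM (edgeR adjusted p = 0.00771). That call was lost without PDGFRa-only replicate 2 (edgeR adjusted p = 0.0540) or PECAM1-only replicate 2 (0.0635). Cdkn1c, the imprinted gene of p57, fell from 3.49 and 2.20 CPM to 0.449 and 0.151 CPM (edgeR adjusted p = 0.000532); the PDGFRa-only libraries held 2 and 1 counts.

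Of 17 genes of CDK activation and cyclin turnover, 5 were higher and 6 lower in PDGFRa-only cells, with a median of 0.06. Among all tested genes 30.1% were higher and 28.8% lower, so these counts are near the background. Usp28, a deubiquitinase, was at 223 and 227 CPM in PECAM1-only and 18.2 and 24.6 in PDGFRa-only libraries (log2 fold change -3.38 ± 0.19 SE, edgeR adjusted p = 2.76e-12). Mnat1, a subunit of the CDK-activating kinase, was lower (-1.38, edgeR adjusted p = 2.93e-06), while Gsk3b, a kinase that marks cyclin D1 for export and breakdown, was higher (1.04, edgeR adjusted p = 8.39e-06). Fbxo4, an F-box gene, was higher (3.08, edgeR adjusted p = 2.31e-05, and 3.70 without PECAM1-only replicate 2) from 0.437 and 0.941 CPM in PECAM1-only libraries. Wee1, an inhibitory kinase of Cdk1, and the F-box gene Fbxo31 were lower by the test (-0.80 and -0.94), but Wee1 lost its call without PDGFRa-only replicate 1 (edgeR adjusted p = 0.0576) or PECAM1-only replicate 1 (0.0687), and Fbxo31 without PDGFRa-only replicate 2 (0.113) or PECAM1-only replicate 1 (0.0580). Without PECAM1-only replicate 1 the list had 2 higher and 3 lower, and without PECAM1-only replicate 2 it had 3 higher.

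Of 5 tested S, G2 and M cyclin genes, with the kinase gene Cdk1 counted among them, 4 were lower in PDGFRa-only cells and none higher. The median was -0.51, and 28.8% of all tested genes were lower and 30.1% higher. Ccnb1, the cyclin of mitotic entry, was at 149 and 129 CPM in PECAM1-only and 69.8 and 91.1 in PDGFRa-only libraries (log2 fold change -0.78 ± 0.17 SE, edgeR adjusted p = 0.000494). Its kinase gene Cdk1 (-0.58), Ccnf (-0.51) and Ccnb2 (-0.43) were lower by less. Ccna2, the gene not called, averaged 327 CPM in PECAM1-only, 396 in double-positive and 357 in PDGFRa-only cells. Ccnb2 lost its call with no count filter (edgeR adjusted p = 0.0547). Without PDGFRa-only replicate 1 the count fell to 1, since Cdk1 (edgeR adjusted p = 0.0880), Ccnf (0.0586) and Ccnb2 (0.0745) were no longer called. Ccnf was also lost without PECAM1-only replicate 1 (log2 fold change -0.49) and Ccnb2 without PECAM1-only replicate 2 (-0.28). The Ccnb2 call was lost too without double-positive replicate 1 (-0.41) or 2 (-0.42).

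Of 19 E2F target genes of S phase entry, 13 were lower and 2 higher in PDGFRa-only cells, with a median of -0.62. The shares over all tested genes were 28.8% lower and 30.1% higher. The replicative helicase genes Mcm6 (-1.48, edgeR adjusted p = 6.75e-08), Mcm2 (-1.48, edgeR adjusted p = 7e-08) and Mcm3 (-1.27, edgeR adjusted p = 5.1e-07) were lower, as was the transcription factor gene Mybl2 (-1.05, edgeR adjusted p = 9.05e-06). Mcm2 stood at 389 and 349 CPM in PECAM1-only, 200 and 185 in double-positive, and 139 and 126 in PDGFRa-only libraries. Cdc6, which loads the helicase onto origins, was higher (1.02, edgeR adjusted p = 3.08e-05) and stood at 41.8 and 38.7 CPM in PECAM1-only and 83.5 and 79.9 in PDGFRa-only libraries. Tk1, thymidine kinase, was higher by the counts (0.83, edgeR adjusted p = 0.000437) but not with the deposited RPKM values (limma adjusted p = 0.0984 and 0.0964 with pseudocounts of 0.1 and 1).

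Of 24 genes known to act upstream of the members, 11 were lower and 4 higher in PDGFRa-only cells, with a median of -0.32. These counts stand beside 28.8% lower and 30.1% higher among all tested genes. Lef1 and Tcf7 encode DNA-binding partners of beta-catenin, which can act on Ccnd1. Lef1 stood at 133 and 105 CPM in PECAM1-only, 43.4 and 35.99 in double-positive, and 0.898 and 1.21 in PDGFRa-only libraries (log2 fold change -6.76 ± 0.30 SE, edgeR adjusted p = 7.97e-14), and Tcf7 fell too (-2.64, edgeR adjusted p = 4.66e-09). Ets1, a transcription factor gene, stood at 1.31 and 1.88 CPM in PECAM1-only and 57.9 and 72.2 in PDGFRa-only libraries (5.34 ± 0.28, edgeR adjusted p = 8.61e-13). Klf6, a zinc finger factor gene, was also higher (2.41, edgeR adjusted p = 1.7e-10), and Ezh2, the Polycomb methyltransferase that can silence the INK4 locus, was lower (-1.25, edgeR adjusted p = 1.04e-06).

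**Figure D5:**
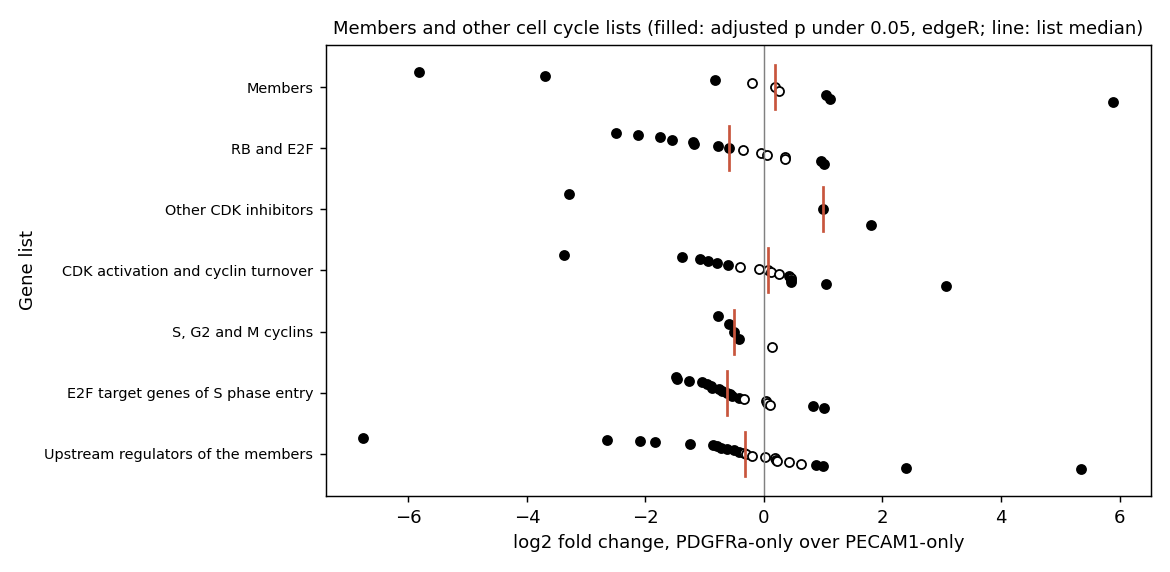
log2 fold change of PDGFRa-only over PECAM1-only cells for the tested members and 6 lists of cell cycle genes; each point is a gene, filled where the edgeR adjusted p was under 0.05, and the line is the list's median. The members span -5.82 to 5.89 with a median of 0.18, while the E2F targets lie between -1.48 and 1.02 with a median of -0.62.

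For each tested member, the genes nearest in pattern were found over the 6 libraries by the root mean square difference of centred log2 CPM, among tested genes of at least 5 CPM on average. For Ccnd1 they were 1700013H16Rik (0.15) and Zfhx2 (0.23), for Cdk6 D1Pas1 (0.10) and Ccdc171 (0.13), and for Ccnd2 Plbd1 (0.11) and Adamts9 (0.14). For Ccne1 they were Epb4.1 (0.02) and Map4k1 (0.08), for Ccne2 Rint1 (0.05) and RP23-378G4.2 (0.10), and for Cdkn1b Gsk3b (0.05) and 4933426M11Rik (0.06). For Ccnd3, Cdkn1a and Cdkn2b the nearest were B630005N14Rik (0.02), Lcorl (0.08) and Tcl1 (0.07). Among the members, Ccne2 and Cdkn1b were the nearest pair, at 0.27. These values describe the 6 libraries and were not tested.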

How the data were processed

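RNA of sorted ESCs was amplified with the Ovation RNA Amplification System V2, per the labels' protocols. The submitters' processing notes name cutadapt 1.2.1, Bowtie2 2.1.0, TopHat2 2.0.8b, HTSeq 0.5.4p3 and build GRCm38; use of strand is not given in the sources used here. The authors deposited raw read counts for 38561 genes, with no normalization, and a second table of RPKM values for 16105 genes, whose scaling and filters are not stated.

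Counts were scaled by TMM and tested with edgeR 4.0.16 (R 4.3.3; quasi-likelihood, robust, two-sided) in 1 fit of all 6 libraries with 3 residual degrees of freedom, after filterByExpr with a minimum count of 10; p-values were Benjamini-Hochberg adjusted over 13909 genes. The members' p-values and 95% intervals used moderated degrees of freedom, 20.6 (15.2 for Cdkn1a), rather than the 3 residual ones. The moderated values borrow from all tested genes and depend on them. SE is the log2 fold change over the square root of F. CPM, shares and positions were computed from the same scaling. Lengths and positions come from GENCODE M21 (36639 of 38561 identifiers matched). RefSeq promoter windows were matched for 7 of the 10 members, all but Ccnd1, Ccnd2 and Ccne2. The test was also run on simulated counts, whose result is not reported here and is not used as evidence. Alternatives were other scalings, filters and fits, DESeq2 1.42.0, limma 3.58.1 on log2(RPKM + 1) or log2(RPKM + 0.1), and leaving out each library. The scale log2(RPKM + pseudocount) understates changes of low genes. Beside the members, up to 4 genes per list with the smallest outer p and up to 2 more called against the direction of most of those 4 were named; where the 4 were evenly split, the further genes were lower ones (Wee1, Fbxo31, Trp53 and Ezh2). Cdk4 and Ccna2 were named outside this rule. Members and lists were chosen with earlier results of these data known. Replicate numbers were not used to pair libraries.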

Additional observations from a re-analysis of the deposited data

How the results depend on the processing

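Over all member values and settings, 417 kept their direction and side of the threshold, 17 lost a call, 1 gained it and 21 reversed; all reversed values belong to members not called. For Ccnd3 the outer value was -0.23 and -0.21 with RPKM (pseudocounts 0.1 and 1), -0.11 with library-size scaling and -0.026 with upper-quartile scaling; double-positive against PECAM1-only gave -0.042 with DESeq2, -0.042 with RLE size factors, -0.21 and -0.20 with RPKM, -0.18 with library-size and -0.14 with upper-quartile scaling; PDGFRa-only against double-positive gave -0.019 and -0.017 with RPKM. For Cdkn1a the outer value was -0.24 with either RPKM pseudocount, -0.03 with library-size scaling and, with single libraries left out, -0.26 to 0.65; against double-positive it ran from -0.63 to 0.27. For Cdkn2b, leaving out single libraries gave -0.74 to 0.29 and, against double-positive, -0.37 to 0.67. Library-size and upper-quartile scaling moved the outer median of all genes to -0.28 and -0.20, which shifts every gene alike; for the rest the cause was not tested.

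Genes lower in double-positive than in PECAM1-only cells numbered 2288, against 3658 with library-size scaling and 1307 to 2788 when single libraries were left out; members higher ranged from 1, without double-positive replicate 2, to 3. The low counts of genes (1307 to 1453) came from leaving out any PECAM1-only or double-positive library. Between PDGFRa-only and double-positive cells, 826 genes were higher, against 179 and 208 with RPKM, 528 with library-size scaling and 218 to 1235 with single libraries left out (218 and 306 without double-positive replicates 1 and 2); 1624 were lower, against 761 and 565 with RPKM. Members higher were 0 and 0 with RPKM and 0 to 1 with single libraries left out, 0 without double-positive replicate 1. Longest-transcript length moved the share of Ccnd1 to 48.0% (PECAM1-only) and 13.6% (double-positive), that of Ccnd2 to 1.16%, 40.2% and 54.3% (PECAM1-only, double-positive, PDGFRa-only), and that of Cdkn1a to 94.5%, 92.1% and 90.0%. RPKM gave 16.6% for Ccnd1 in double-positive cells, 1.41% and 68.4% for Ccnd2 in PECAM1-only and PDGFRa-only cells, 80.3% for Ccne1 in double-positive cells, and 97.8%, 95.8% and 93.2% for Cdkn1a. Positions on the linear scale were 69.5%, 65.1%, 77.1% and 61.4% for Ccnd1, Ccnd2, Ccne1 and Cdk6, and library-size scaling put Cdk6 at 34.2%.

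Replicate numbers were not shown to pair the libraries: deviations of same-numbered libraries correlated at -0.03, 0.13 and 0.18 across 13909 genes. With the replicate block, 4272 genes were higher and 4125 lower between the outer fractions, 3179 and 2465 for double-positive against PECAM1-only and 1065 and 1769 for PDGFRa-only against double-positive cells; no member call changed. Adding the Ccnd3-ps counts to Ccnd3, chosen after seeing the data, changed no member call.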
